A study of Mus musculus with 40 samples.

Results

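The Gadd45 family and a set of p53 target genes were followed across 40 arrays of neonatal mouse brain. The set held 10 genes: Gadd45a, Gadd45b, Gadd45g, Phlda3, Cdkn1a, Mdm2, Bbc3, Bax, Ccng1 and Pmaip1. Members were found by gene symbol through the probe annotation of the array, with the RefSeq symbol used where its gene ID matched. The probe set of highest mean signal was taken for a gene with several. A probe set is the group of array probes that reports 1 transcript. Of the 10 genes, 8 were measured by a probe set of their own, among 19937 genes in all. Cdkn1a was reported only by a probe set (10443463) that also lists 4930567H12Rik, so its signal cannot be given to either gene; it is described apart and not counted. No probe set was annotated to Bax.

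All brains came from C57/Bl6 mice at postnatal day 9, and total RNA was hybridised to Affymetrix arrays, 5 for each of 8 groups. The Vehicle and IDR groups were taken 10 h after vehicle or after IDR-1018, an immunomodulatory peptide. The LPS group was taken 6 h after lipopolysaccharide (LPS), a bacterial cell wall component, and the LPS with IDR group had received the peptide 4 h before LPS, with brains also removed 6 h after LPS. The remaining 4 groups came from a model of LPS followed by hypoxia-ischaemia (LPS/HI): vehicle or IDR-1018 was given 4 h before LPS, hypoxia-ischaemia followed 14 h after LPS, and brains were removed 6 h after hypoxia-ischaemia, which is 20 h after LPS. In these animals the left hemisphere was the injured one and the right was uninjured; both had received LPS, so the uninjured hemisphere is no untreated control. The labels of the other groups name uninjured brain. The dose, the sex of the pups, and whether each array or each hemisphere pair comes from a separate animal are not stated, so p-values measure the spread between these samples, which may be partly technical.

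p53 is a transcription factor that is stabilised after DNA damage and other stress and induces genes that halt the cell cycle, repair DNA or start apoptosis. Its target Mdm2 marks p53 for degradation and so closes a feedback loop. The GADD45 proteins are small stress sensors that bind the cell cycle proteins PCNA, CDK1 and p21 and the kinase MAP3K4, which acts upstream of p38 and JNK. Gadd45a is a classical p53 target, whereas Gadd45b and Gadd45g are also induced by cytokines, NF-kB and neuronal activity. In the brain the family is known for its response to ischaemia and seizures and for a role in DNA demethylation.

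Signals are RMA values on the log2 scale, so a difference of 1 is a doubling, and signals of different probe sets are not compared with each other. Signals ran from 1.84 to 14.0 over the arrays, array medians from 6.99 to 7.13, and correlations between arrays from 0.986 to 0.998. The mean of 6 neuronal markers lay between 11.30 and 11.64 on every array. The number of arrays with high Xist, a transcript of the inactive X chromosome, differed between groups: 2 of 5 for Vehicle, 1 for IDR, 5 for LPS, 2 for LPS with IDR, 4 in each LPS/HI group without peptide and 3 in each with it. Calls rest on limma, with p-values adjusted over all 19937 genes by the Benjamini-Hochberg method and a threshold of 0.05. The error given with a fold change is its standard error, and that of a group mean is the SD.

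Gadd45b, Gadd45g and Phlda3 were higher in the injured than in the uninjured hemisphere of the LPS/HI model, both without and with the peptide, and the other 5 measured members were not called. Without peptide, 3 of the 8 measured members were called in the injured against the uninjured hemisphere, all of them higher, where 2.99% of all genes were called and 2.18% were called higher. With IDR-1018 the same comparison, which shares no array with the first, again called these 3 of 8, all higher, against 2.50% of all genes called and 1.80% called higher. The members were chosen with earlier results of these data known, so these shares are no test of the set. In these samples of whole tissue, a changed number of cells of a type and a changed amount of RNA per cell cannot be told apart.

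Gadd45b, a stress-induced member of the GADD45 family that binds MAP3K4, had the largest difference of the set. Its signal was 7.65, 7.93, 7.73, 7.72 and 7.85 in the 5 uninjured hemispheres without peptide and 9.53, 9.45, 8.70, 9.13 and 9.54 in the injured hemispheres. Every injured hemisphere was above every uninjured one, and replicate 3 was the lowest injured sample. The group means were 7.78 ± 0.11 and 9.27 ± 0.36 (SD, n = 5 each). The log2 fold change was 1.49 ± 0.14 (95% interval 1.20 to 1.79; 2.82-fold; limma adjusted p = 7.5e-05). By that value it ranked 8 of 19937 genes.

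With IDR-1018, Gadd45b read 7.78, 8.36, 7.61, 7.49 and 7.94 in the uninjured hemispheres and 9.19, 9.64, 8.89, 8.71 and 9.74 in the injured ones. The groups again did not overlap, although uninjured replicate 2, at 8.36, stood closer to the injured samples than the others. This gave a log2 fold change of 1.40 ± 0.20 (95% interval 0.97 to 1.84; limma adjusted p = 0.00344). The 6 other group means of Gadd45b ran from 7.70 ± 0.18 in LPS with IDR through 7.73 ± 0.16 in Vehicle, 7.78 ± 0.11 in LPS/HI uninjured, 7.80 ± 0.07 in IDR and 7.83 ± 0.34 in LPS/HI uninjured with IDR to 7.87 ± 0.19 in LPS. No comparison made among these 6 groups was called for Gadd45b.

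Gadd45g, the family member best known as a cytokine-inducible growth arrest gene, was also higher in the injured hemisphere. It read 7.50, 7.40, 7.54, 7.63 and 7.85 in the uninjured hemispheres without peptide and 8.51, 8.43, 8.01, 8.51 and 8.94 in the injured ones. The groups did not overlap, and replicate 3 was again the lowest injured sample. The log2 fold change was 0.89 ± 0.14 (95% interval 0.60 to 1.19; 1.86-fold; limma adjusted p = 0.00342). With peptide the values were 7.68, 8.13, 7.52, 7.32 and 7.93 against 8.27, 9.08, 8.07, 8.44 and 8.92. Here the groups overlapped, since the highest uninjured sample (8.13, replicate 2) exceeded the lowest injured sample (8.07, replicate 3). The difference was 0.84 ± 0.19 on the log2 scale (95% interval 0.43 to 1.25; limma adjusted p = 0.037). This call was lost when arrays were centred on their medians (adjusted p = 0.0545) and when any of 6 arrays was left out: uninjured replicates 1, 3, 4 and 5 (adjusted p = 0.0911, 0.0778, 0.089 and 0.0567) or injured replicates 2 and 5 (0.075 and 0.0916), with log2 fold changes between 0.71 and 0.89. The 6 other group means of Gadd45g ran from 7.59 ± 0.17 in LPS/HI uninjured to 7.93 ± 0.15 in LPS.

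Phlda3, a p53 target whose pleckstrin homology domain competes with the kinase Akt for membrane lipids, read 8.15, 8.10, 8.44, 8.36 and 8.47 in the uninjured and 8.95, 8.82, 9.12, 8.69 and 9.02 in the injured hemispheres without peptide. With peptide it read 8.15, 8.44, 8.61, 8.04 and 8.26 against 8.88, 8.85, 9.01, 8.92 and 8.93. In both cases all injured samples were above all uninjured samples, and the injured hemispheres given the peptide lay within a narrow range (SD 0.06). The log2 fold change was 0.62 ± 0.10 in each, with 95% intervals of 0.41 to 0.83 without peptide (1.53-fold; limma adjusted p = 0.00369) and 0.41 to 0.82 with it (adjusted p = 0.00454). The 6 other group means of Phlda3 ran from 8.30 to 8.48.

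**Figure D1:**
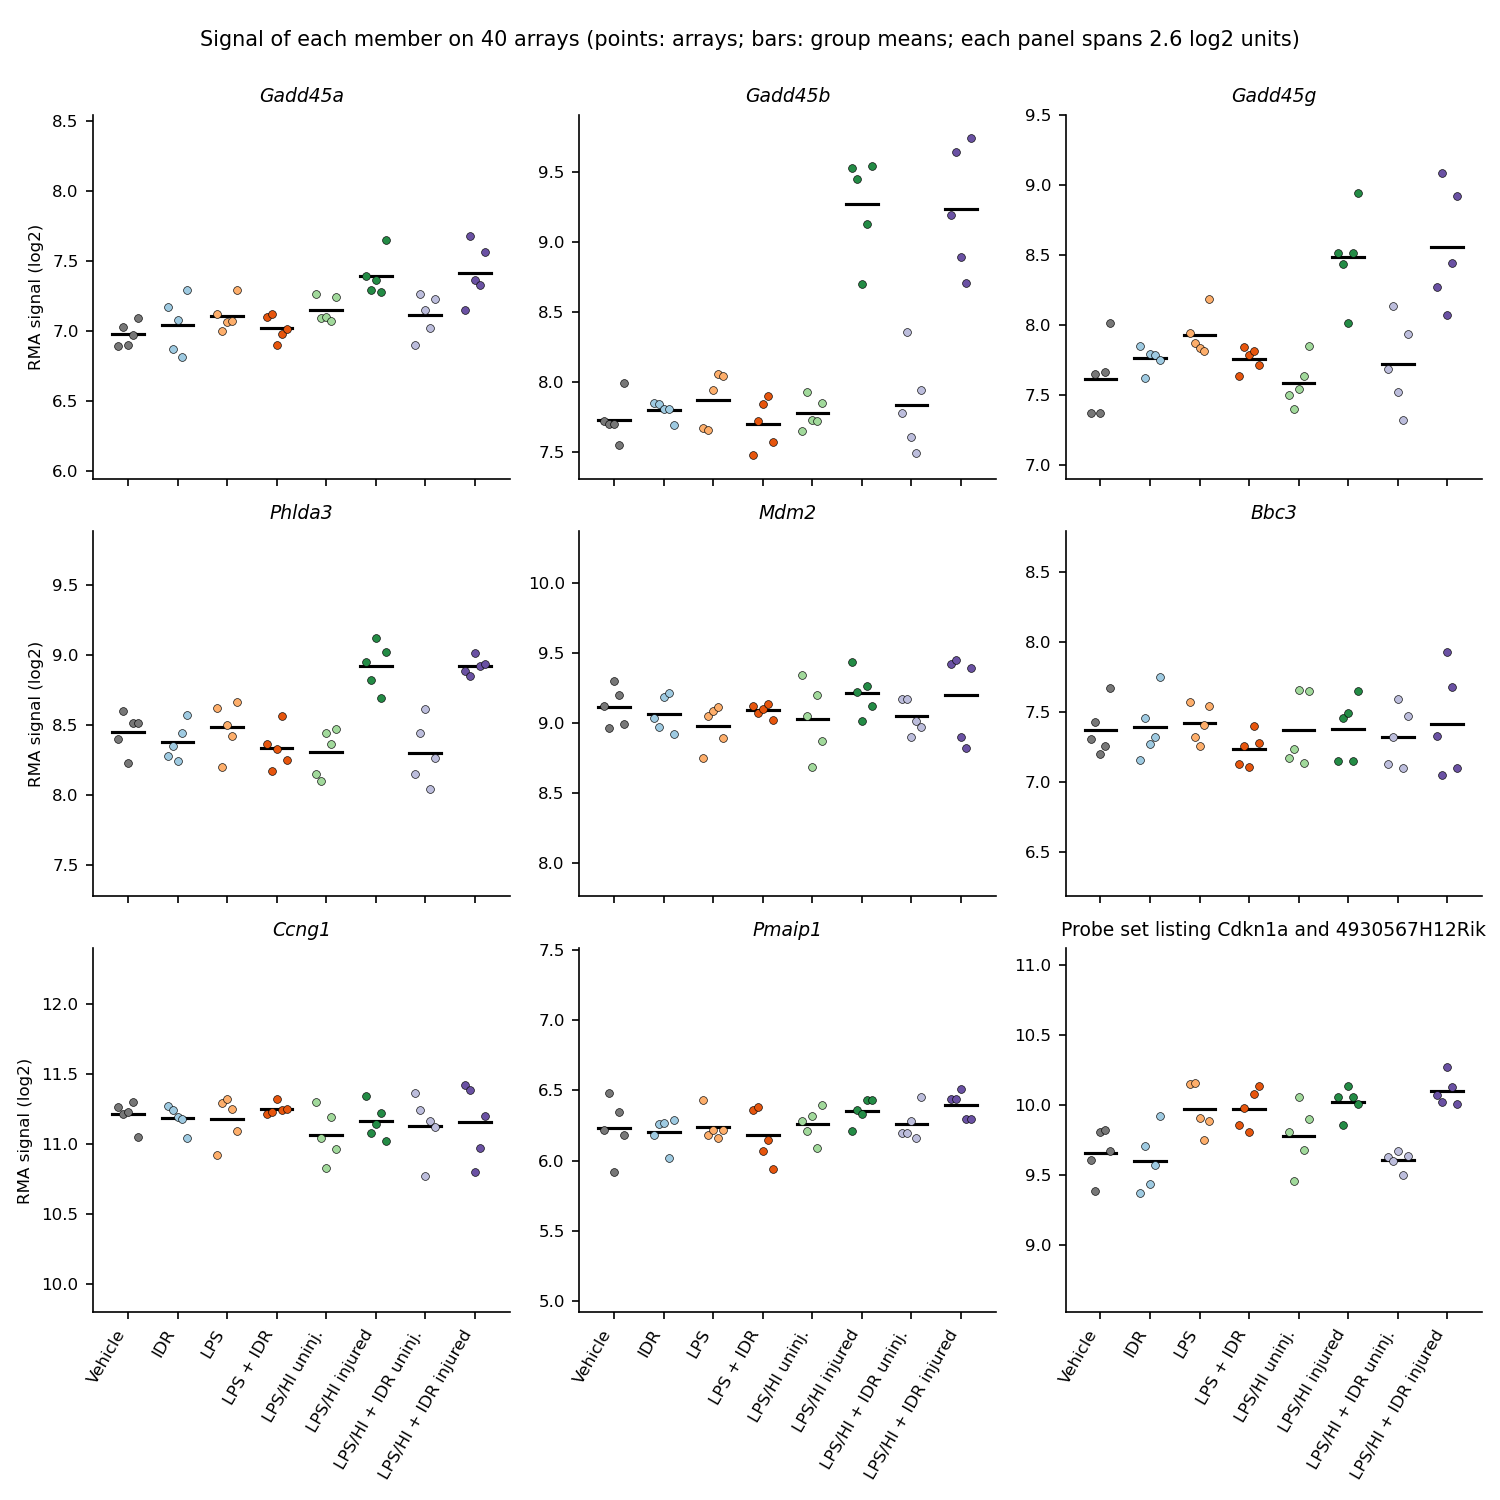
Log2 RMA signal (vertical axis, each panel spanning the same number of log2 units) of the 8 measured members and of the probe set shared by Cdkn1a and 4930567H12Rik on the 5 arrays of each of the 8 groups (horizontal axis); points are arrays and bars are group means. In both injured groups Gadd45b sits between 8.70 and 9.74, above every array of the other groups, whereas the points of Mdm2, Bbc3, Ccng1 and Pmaip1 overlap between the hemispheres.

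The RefSeq promoter sequences of the called genes are shown because these genes moved together in the injured hemisphere. The 150 bases directly before the annotated start are given for Gadd45b (chr10:80929941-80930090, plus strand), Gadd45g (chr13:51846525-51846674, plus strand) and Phlda3 (chr1:135765935-135766084, plus strand) in GRCm38.p6, 5′ to 3′, with the core promoter letters TATAAA and CCAAT in capitals.
Gadd45b: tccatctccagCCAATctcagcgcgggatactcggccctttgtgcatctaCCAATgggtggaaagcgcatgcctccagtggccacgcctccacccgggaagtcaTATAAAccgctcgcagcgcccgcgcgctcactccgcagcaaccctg
Gadd45g: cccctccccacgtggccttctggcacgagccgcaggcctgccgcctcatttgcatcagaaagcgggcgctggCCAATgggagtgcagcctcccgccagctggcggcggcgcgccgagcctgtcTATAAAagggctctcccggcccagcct
Phlda3: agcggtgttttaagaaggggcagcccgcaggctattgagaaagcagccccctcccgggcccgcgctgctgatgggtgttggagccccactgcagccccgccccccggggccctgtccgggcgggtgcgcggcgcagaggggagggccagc

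Both Gadd45b and Gadd45g held TATAAA, starting at -46 and -27 from the start, and no other member with a promoter window did. On both strands of windows from 250 bases before to 50 after the start, TATAAA occurred in 15.7% of 27025 genes and CCAAT in 41.1%; CCAAT occurred in 6 members. These letters were chosen after the sequences had been seen. The AP-1 letters TGANTCA (8.97% of genes) and the cAMP response element TGACGTCA (2.03%) were in no member's window, and the NF-kB motif (5.14% of genes) was found only in Bbc3, as 2 overlapping matches. A match describes letters in this window and is not evidence of binding, and a factor may act on sequence outside it.

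Gadd45a, the family member with a known p53 site and a partner of PCNA, was higher in the injured hemisphere by a smaller margin. It read 7.26, 7.09, 7.10, 7.07 and 7.24 in the uninjured and 7.39, 7.29, 7.36, 7.28 and 7.65 in the injured hemispheres without peptide. The groups did not overlap, but the gap was narrow, with 7.26 next to 7.28. The log2 fold change of 0.24 ± 0.08 (95% interval 0.07 to 0.41) was not called (limma adjusted p = 0.134). In these groups samples with the same number deviated together, and with the number as a block Gadd45a was called (log2 fold change 0.24 ± 0.05, limma adjusted p = 0.0212), giving 4 of 8 members where 10.2% of all genes were then called. With peptide Gadd45a read 6.90, 7.26, 7.15, 7.02 and 7.23 against 7.15, 7.68, 7.36, 7.33 and 7.56. Those groups overlapped and the log2 fold change of 0.30 ± 0.10 was not called (adjusted p = 0.156). Fitting all 8 groups together called it (adjusted p = 0.0276).

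Cdkn1a encodes p21, the inhibitor of cyclin-dependent kinases through which p53 halts the cell cycle. The probe set it shares with 4930567H12Rik read 9.81, 9.46, 10.06, 9.68 and 9.90 in the uninjured and 10.06, 9.86, 10.14, 10.06 and 10.01 in the injured hemispheres without peptide, an overlap of the groups and a log2 fold change of 0.24 ± 0.10 that was not called (limma adjusted p = 0.266; 0.0395 with the number as a block). With peptide it read 9.63, 9.60, 9.67, 9.50 and 9.64 against 10.07, 10.02, 10.27, 10.13 and 10.01. All injured samples were above all uninjured ones here, and the log2 fold change of 0.49 ± 0.07 was called (adjusted p = 0.00272). The difference between these effects was 0.25 ± 0.12 (95% interval -0.01 to 0.50; adjusted p = 1), so the effect was not shown to depend on the peptide.

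Mdm2, the ubiquitin ligase of the p53 feedback loop, and Ccng1, the p53-induced cyclin G1, were not called between hemispheres. Mdm2 read 9.34, 9.05, 8.68, 9.20 and 8.87 in the uninjured and 9.43, 9.22, 9.01, 9.26 and 9.12 in the injured hemispheres without peptide, with overlapping groups and a log2 fold change of 0.18 ± 0.12 (95% interval -0.07 to 0.43; limma adjusted p = 0.536). With peptide the Mdm2 difference was 0.15 ± 0.12 (-0.12 to 0.42; adjusted p = 0.675). For Ccng1 the differences were 0.09 ± 0.09 (-0.11 to 0.29) without and 0.03 ± 0.13 (-0.25 to 0.31) with the peptide, neither called. The intervals leave room for a rise of up to 0.43 in Mdm2 and 0.31 in Ccng1 on the log2 scale.

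The apoptosis effectors Bbc3 (PUMA) and Pmaip1 (NOXA), BH3-only proteins that neutralise anti-apoptotic BCL2 proteins, were not called either. Bbc3 ran from 7.14 to 7.66 in the uninjured and from 7.15 to 7.65 in the injured hemispheres without peptide, a log2 fold change of 0.01 ± 0.13 (95% interval -0.27 to 0.28). Pmaip1 ran from 6.09 to 6.40 and from 6.21 to 6.43, a log2 fold change of 0.09 ± 0.07 (-0.07 to 0.25). With peptide the Bbc3 and Pmaip1 differences were 0.10 ± 0.16 and 0.14 ± 0.07, and the hemispheres overlapped for each. Over the 8 measured members the median log2 fold change was 0.21 without and 0.23 with peptide, beside 0.01 and 0.00 over all genes.

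**Figure D2:**
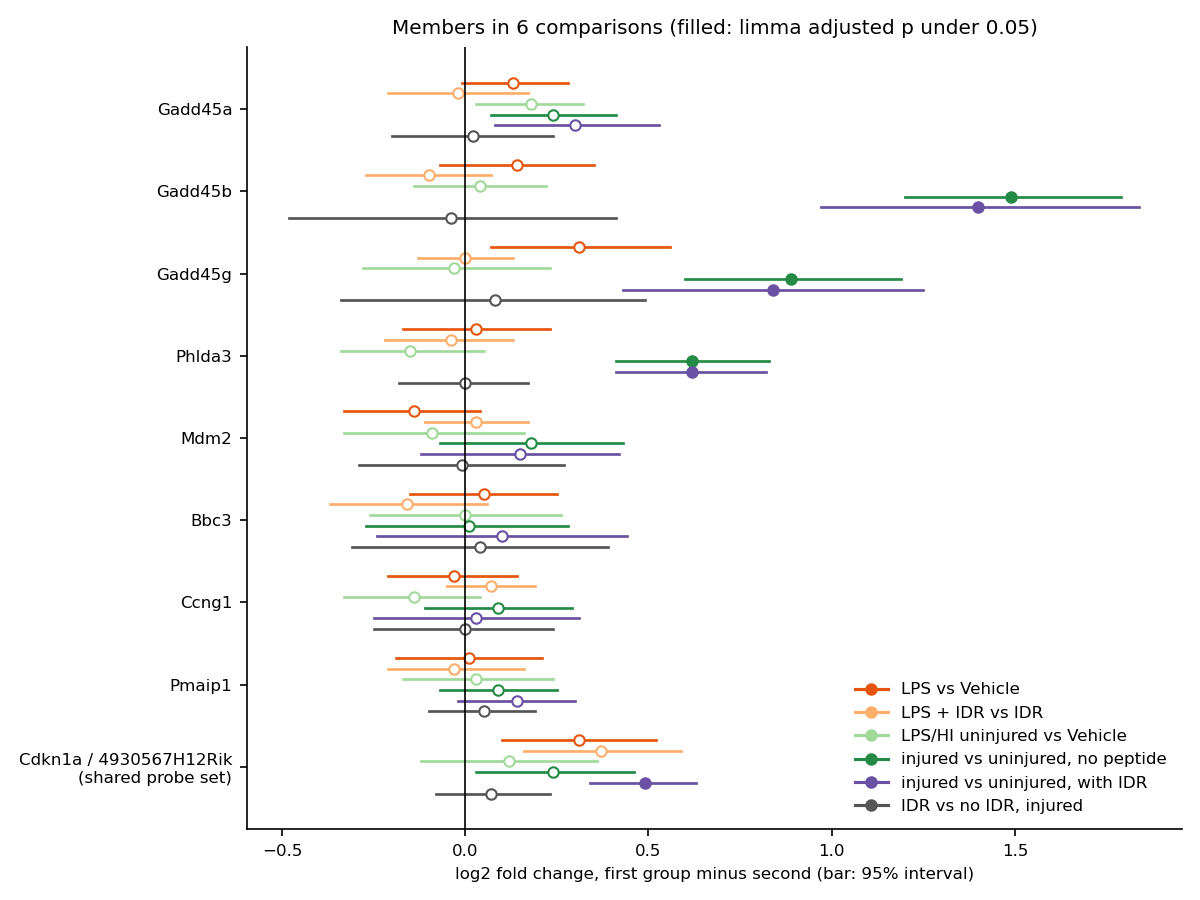
Log2 fold changes (horizontal axis, first group minus second) of each member and the shared Cdkn1a probe set in 6 comparisons, with 95% intervals as bars; filled points have a limma adjusted p under 0.05. Gadd45b, Gadd45g and Phlda3 are filled in both injury comparisons, at 1.49 and 1.40, 0.89 and 0.84, and 0.62 and 0.62, and no member is filled for LPS or for the peptide.

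Injured and uninjured samples that carry the same number in the labels were also compared. Without peptide, the injured sample minus the uninjured sample of the same number gave 1.88, 1.53, 0.96, 1.41 and 1.69 for Gadd45b, 1.01, 1.02, 0.47, 0.87 and 1.09 for Gadd45g and 0.80, 0.71, 0.69, 0.34 and 0.55 for Phlda3. Gadd45a differed by 0.13 to 0.40, Mdm2 by 0.06 to 0.33 and Ccng1 by 0.02 to 0.31, positive in 5 of 5 pairs for each. Bbc3 ranged from -0.17 to 0.22, positive in 2 of 5 pairs, of which the smaller rounds to 0.00, and Pmaip1 was positive in 4 of 5. With peptide the lowest same-number correlation was 0.0884 and the numbers were not taken as pairs, so the differences between samples of like number only describe these arrays. They ran from 1.22 to 1.81 for Gadd45b, 0.55 to 1.12 for Gadd45g, 0.40 to 0.88 for Phlda3 and 0.21 to 0.42 for Gadd45a, positive for 5 of 5 numbers each. Mdm2 and Bbc3 were positive for 3 of 5 numbers, and Bbc3 ranged from -0.37 to 0.58.

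**Figure D3:**
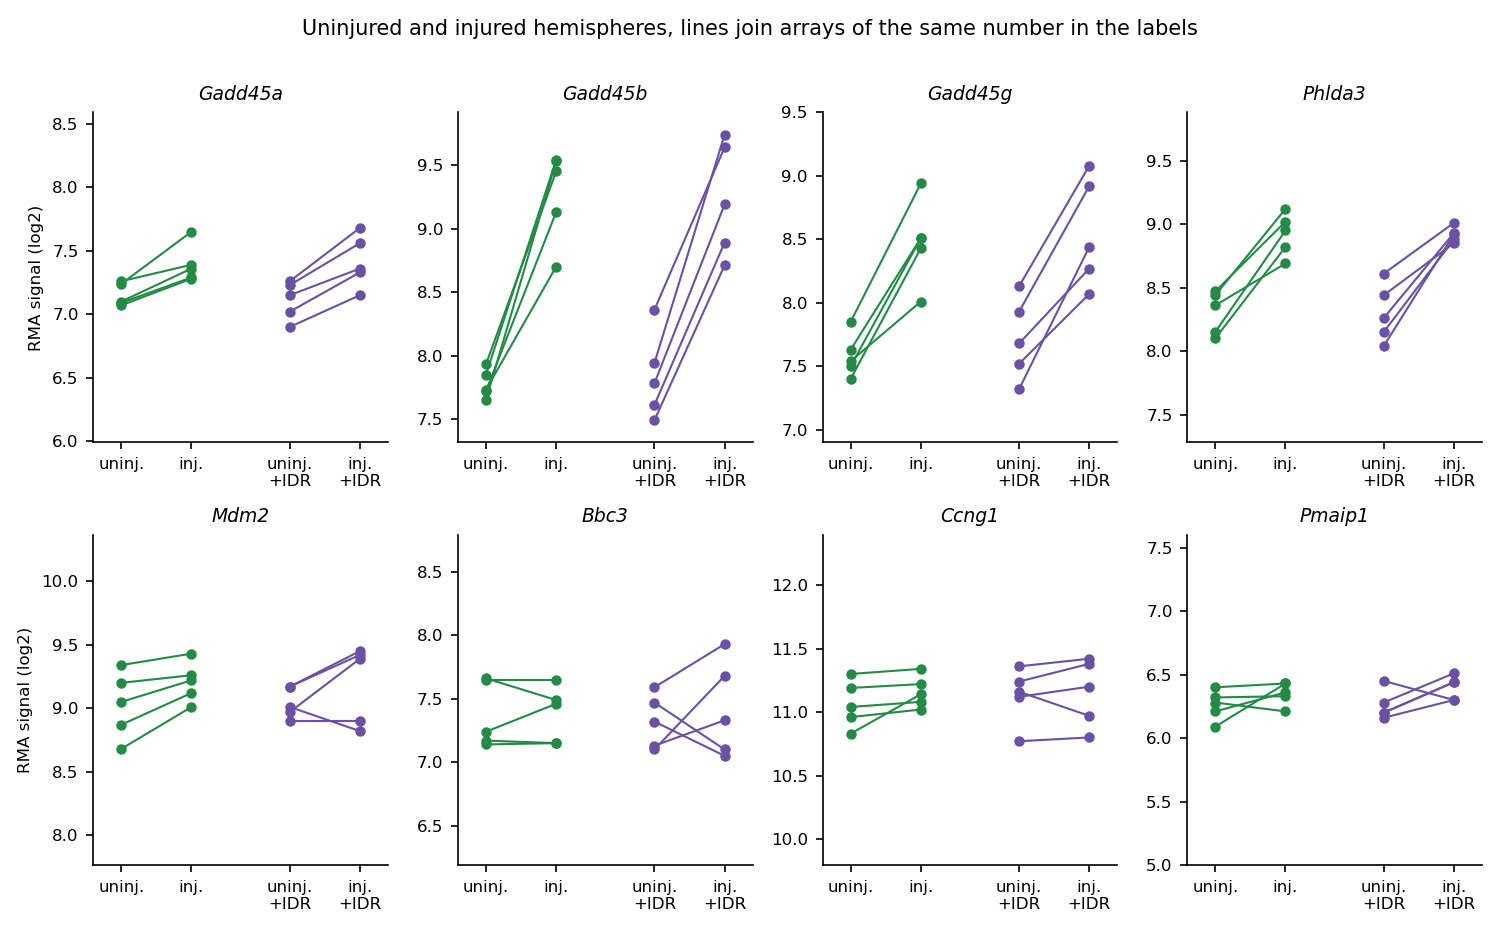
Log2 RMA signal (vertical axis) of the 8 measured members in the uninjured and injured hemispheres without peptide (green) and with IDR-1018 (purple); lines join arrays with the same number in the labels, which was taken as a pair only without peptide. All lines rise for Gadd45a, Gadd45b, Gadd45g and Phlda3, whereas the lines of Bbc3 cross. For Bbc3, 2 of 5 rise without peptide, the smaller by a difference that rounds to 0.00, and 3 of 5 with it.

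The 5 p53 target members whose promoter windows hold the p53 motif are shown. Of these, Bax had no probe set and Cdkn1a only a shared one, and any relation of the motif to the calls was not tested. The motif is a 10-base p53 decamer, which is only part of a full p53 site, and it was searched on both strands. It occurred in 9.55% of 27025 genes and in 5 of the 9 members with a window, as 6 matches. Each line is the gene's strand, 5′ to 3′, with the match in capitals, from RefSeq GRCm38.p6: Gadd45a chr6:67037423-67037462 (minus strand), Cdkn1a chr17:29090891-29090952 (plus), Mdm2 chr10:117710920-117710959 (minus), Bax chr7:45467075-45467114 (minus) and Ccng1 chr11:40755447-40755486 (minus).
Gadd45a: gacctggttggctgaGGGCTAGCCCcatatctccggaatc
Cdkn1a: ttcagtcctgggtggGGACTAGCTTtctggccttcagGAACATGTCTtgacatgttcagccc
Mdm2: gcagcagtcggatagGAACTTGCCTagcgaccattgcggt
Bax: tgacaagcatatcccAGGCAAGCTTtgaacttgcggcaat
Ccng1: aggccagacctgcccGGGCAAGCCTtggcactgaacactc

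Counted from the start, the matches began at -40 in Gadd45a, -73 and -51 in Cdkn1a, -186 in Mdm2, -201 in Bax and -185 in Ccng1. Those of Cdkn1a lay in the window chr17:29090729-29091028. Another Cdkn1a window, chr17:29093519-29093818, belongs to a different annotated start and held no match. Gadd45b, Gadd45g, Phlda3 and Bbc3 had no match in the windows searched, and Pmaip1 had no window. Known p53 sites often lie in introns or farther upstream, outside this window.

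Against the Vehicle brains, 4 of 8 members were higher in the injured hemisphere, where 8.34% of all genes were called and 4.45% were called higher. Gadd45a was among them here: it read 6.89, 7.03, 6.90, 6.97 and 7.09 in Vehicle, all below the injured samples, and it differed by 0.42 ± 0.08 on the log2 scale (limma adjusted p = 0.00396). Gadd45b was higher by 1.54 ± 0.14 (adjusted p = 1.49e-05), Gadd45g by 0.87 ± 0.15 (0.00271) and Phlda3 by 0.47 ± 0.09 (0.005). This comparison uses the same injured arrays as the comparison of hemispheres and also differs from Vehicle in time, LPS and handling. The shared Cdkn1a probe set was higher by 0.36 ± 0.09 (adjusted p = 0.0175).

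In the animals given the peptide, the injured hemisphere against the IDR group called 3 of 8 members, all higher, against 5.87% of all genes called and 3.52% called higher. The log2 fold changes were 1.44 ± 0.17 for Gadd45b (limma adjusted p = 0.000427), 0.80 ± 0.16 for Gadd45g (0.011) and 0.54 ± 0.07 for Phlda3 (0.000788). Gadd45a was higher by 0.37 ± 0.11 and was not called (adjusted p = 0.0734); it was called when all 8 groups were fitted together (0.00399), without injured replicate 1 (0.0466) and without IDR replicate 5 (0.0387). Pmaip1 had no overlap between the groups, yet its log2 fold change of 0.19 ± 0.07 was not called (0.136). The shared Cdkn1a probe set was higher by 0.50 ± 0.10 (0.00983).

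The uninjured hemisphere of the LPS/HI model was set against Vehicle and, with peptide, against IDR, groups that had received neither LPS nor hypoxia-ischaemia. No member was called against Vehicle, where 0.436% of all genes were. At an unadjusted p under 0.05 there were 1312 of all genes and 1 of 8 members. That member was Gadd45a, at 0.18 ± 0.07 (95% interval 0.03 to 0.32, limma adjusted p = 0.582). With peptide no member was called against IDR, where 0.201% of all genes were, and none had an unadjusted p under 0.05. The Gadd45b differences were 0.04 ± 0.08 (-0.14 to 0.22) and 0.03 ± 0.13 (-0.24 to 0.30).

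LPS alone, 6 h after dosing, gave no call among the members, where 0.833% of all genes were called. Gadd45g had the smallest p and was the 1 member with an unadjusted p under 0.05, beside 1240 of all genes. It read 7.37, 7.65, 7.37, 7.66 and 8.01 in Vehicle and 7.94, 7.87, 7.83, 7.81 and 8.18 in LPS. Vehicle replicate 5, at 8.01, lay among the LPS samples, so the groups overlapped. The log2 fold change was 0.31 ± 0.12 (95% interval 0.07 to 0.56; limma adjusted p = 0.536). The other measured members differed by between -0.14 (Mdm2) and 0.14 (Gadd45b), and the shared Cdkn1a probe set by 0.31 ± 0.10 (adjusted p = 0.354). All 5 LPS arrays but 2 of 5 Vehicle arrays had high Xist; with Xist as a covariate still no member was called.

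After the peptide, LPS against IDR alone again called no member, where 1.47% of all genes were called, and none had an unadjusted p under 0.05. Gadd45g differed by 0.00 ± 0.06 (95% interval -0.13 to 0.13) and the shared Cdkn1a probe set by 0.37 ± 0.10 (limma adjusted p = 0.109). The difference between the LPS effects with and without peptide was -0.31 ± 0.14 for Gadd45g (-0.60 to -0.03, limma adjusted p = 0.86). It was the 1 member with an unadjusted p under 0.05, beside 873 of all genes. No member was called, and 0.00502% of all genes were.

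No effect of the peptide on a member was called in any setting. For IDR against Vehicle, LPS with IDR against LPS, and the peptide in the injured and in the uninjured hemisphere, no member was called and 0% of all genes were called by limma. At an unadjusted p under 0.05 there were 321, 2674, 277 and 376 of all genes in these comparisons, and 0, 2, 0 and 0 of the members. The 2 members after LPS were Bbc3, at -0.18 ± 0.08 (95% interval -0.35 to -0.02), and Gadd45g, at -0.17 ± 0.08 (-0.33 to -0.01), with adjusted p = 0.345 and 0.357. In the injured hemisphere the peptide differed from no peptide by -0.04 for Gadd45b (-0.48 to 0.41), 0.08 for Gadd45g (-0.34 to 0.49), 0.00 for Phlda3 (-0.18 to 0.17) and 0.02 for Gadd45a (-0.20 to 0.24). The injury effect with peptide minus that without it was -0.09 for Gadd45b (-0.65 to 0.46), -0.05 for Gadd45g (-0.59 to 0.48) and 0.00 for Phlda3 (-0.29 to 0.29); no member was called and 0% of all genes were, with 361 genes and 0 members at an unadjusted p under 0.05. In the injured hemisphere these intervals leave room for peptide effects down to -0.48 in Gadd45b and up to 0.49 in Gadd45g. For the difference between the injury effects they reach -0.65 in Gadd45b and -0.59 in Gadd45g.

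Across the 8 group means, Gadd45b spanned 1.57 on the log2 scale against a within-group SD of 0.26, and 99.8% of genes had a smaller span. The spans were 0.97 for Gadd45g (within-group SD 0.26), 0.62 for Phlda3 (0.16), 0.50 for the shared Cdkn1a probe set (0.16) and 0.44 for Gadd45a (0.14). Mdm2, Pmaip1, Ccng1 and Bbc3 spanned 0.23, 0.22, 0.19 and 0.18, beside within-group SDs of 0.18, 0.14, 0.16 and 0.23. Only in the first 5 of these probe sets was the span over 2 times the within-group SD.

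Genes with the most similar pattern were found by the root mean square difference of the 8 group means, each gene centred on its own mean. For Gadd45b these were Hmox1 (0.09), Cd14 (0.12) and Gem (0.13), whose means in the uninjured and injured hemispheres without peptide were 7.36 and 8.56, 6.42 and 7.62, and 6.44 and 7.65. For Gadd45g they were Il1b (0.08), Zfp36 (0.09) and Ccl4 (0.09). For Phlda3 they were Rgs16 (0.03), Hsph1 (0.04) and Pdpn (0.04). Hmox1 encodes haem oxygenase, Cd14 a co-receptor for LPS, Il1b the cytokine interleukin-1 beta, Zfp36 an RNA-destabilising protein, Ccl4 a chemokine and Hsph1 a heat shock protein.

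Pathway genes outside the set were described by 4 lists. Of 23 measured p53 targets (26 listed), 2 were called in the injured hemisphere without peptide, both higher, where 2.99% of all genes were called: Fas, a death receptor, at 0.42 ± 0.08 (limma adjusted p = 0.00923) and Eda2r, a receptor of the tumour necrosis factor family, at 0.33 ± 0.07 (0.0266). With peptide 3 were called, all higher, where 2.50% of all genes were: Fas at 0.62 ± 0.11 (0.0114), Sesn2, a stress-induced inhibitor of mTORC1 signalling, at 0.37 ± 0.08 (0.0319) and the receptor tyrosine kinase Epha2 at 0.27 ± 0.06 (0.0438). The medians over the 23 were 0.06 and 0.11, beside 0.01 and 0.00 over all genes. These counts were sensitive to single arrays: without peptide the count was 1 when injured replicate 1, 3 or 4 or uninjured replicate 1 or 2 was left out, and with peptide it was 1 without injured replicate 1, 3 or 5 or uninjured replicate 1. With the number as a block, which pairs the hemispheres without peptide, 5 of the 23 were called there, where 10.2% of all genes were. Other settings moved the count without peptide to 4 (all 8 groups in 1 fit) or 0 (filter on low signal). That 1 fit called 1431 of all genes, against 596 in the main fit. With peptide the count became 5 in 1 fit or with Xist as a covariate, and 1 with centred arrays. There 1 fit called 1432 of all genes and the Xist covariate 1085, against 498 in the main fit.

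Among 12 BCL2 family genes outside the set, 1 was called in each injury comparison, where 2.99% and 2.50% of all genes were: Bcl2l11, which encodes the BH3-only protein BIM, at 0.45 ± 0.07 without peptide (limma adjusted p = 0.00342) and 0.49 ± 0.08 with it (0.0073). Without peptide the count was 5 with the number as a block (10.2% of all genes) and 4 with all 8 groups in 1 fit (1431 of all genes). It was 2 with the filter on low signal or without uninjured replicate 3. With peptide it was 5 in 1 fit (1432 of all genes), 4 with Xist as a covariate (1085 of all genes), and 2 without injured replicate 4. Of 10 measured GADD45 partners and MAP kinases, Map2k3, a kinase that activates p38, was called without peptide at 0.28 ± 0.06 (0.0316), and none of the 10 was called with peptide, where 1 had an unadjusted p under 0.05 (Map2k3, 0.19 ± 0.06; adjusted p = 0.147). That call was lost when any array but injured replicate 3 or uninjured replicate 2 was left out, and 2 were called with the number as a block, which called 10.2% of all genes. Of 11 measured genes of p53 and its regulators none was called by limma in either injury comparison; Trp53 itself had no probe set of its own. At an unadjusted p under 0.05 there were 2992 of all genes without and 2870 with peptide, and 1 of these 11 in each. It was the checkpoint kinase gene Chek1, at 0.59 ± 0.16 (limma adjusted p = 0.0745) and 0.46 ± 0.12 (0.0676), named here after its values were seen. Leaving out injured replicate 5 without peptide, or injured replicate 3 or 4 with peptide, gave 1 call in this list, as did all 8 groups in 1 fit in either comparison, the number as a block without peptide and Xist as a covariate with it.

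**Figure D4:**
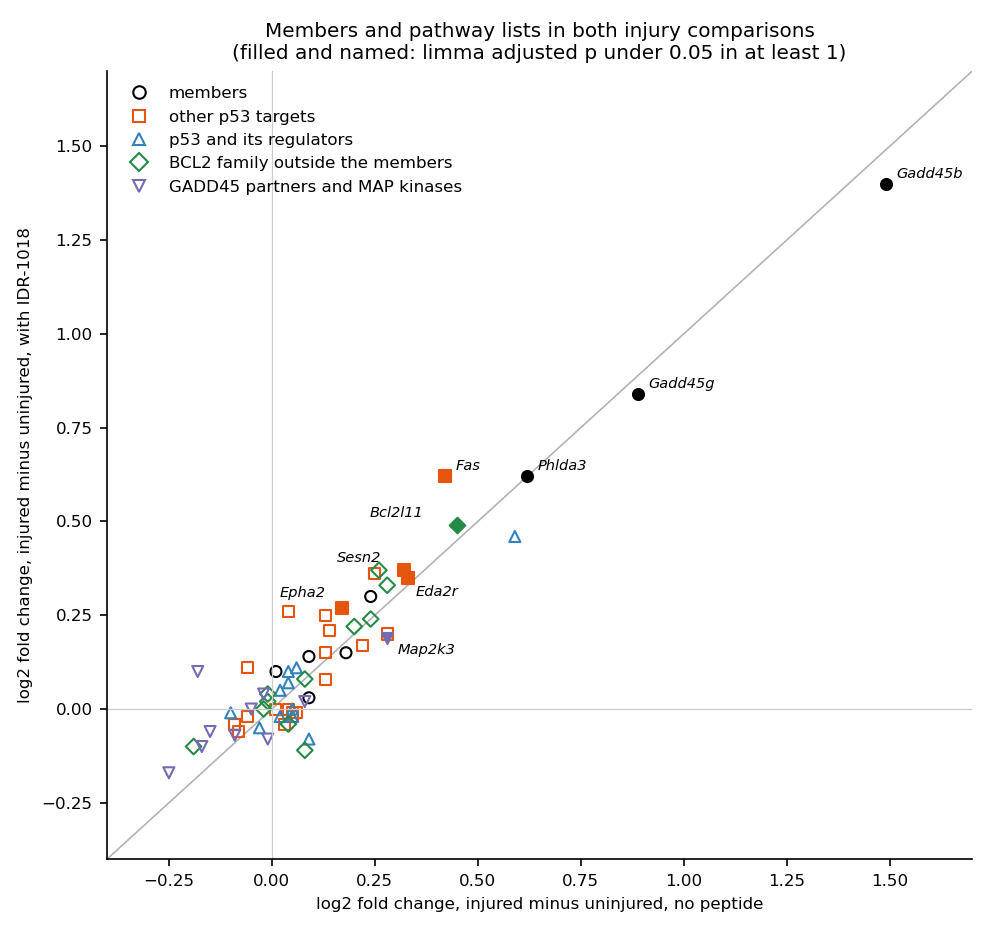
Log2 fold changes of injured against uninjured hemisphere without peptide (horizontal axis) and with IDR-1018 (vertical axis) for the measured members and 4 gene lists; each point is a gene, the diagonal marks equal values, and filled, named points have a limma adjusted p under 0.05 in at least 1 comparison. Gadd45b (1.49 and 1.40) and Gadd45g (0.89 and 0.84) lie farthest from the origin, and Fas (0.42 and 0.62) and Bcl2l11 (0.45 and 0.49) are the highest named genes outside the members.

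Against Vehicle, the injured hemisphere had 3 of the 23 other p53 targets called, all higher, where 8.34% of all genes were called and 4.45% were called higher: Fas (0.46 ± 0.09), Sesn2 (0.40 ± 0.07) and the related sestrin Sesn1 (0.32 ± 0.09). Of the 12 BCL2 family genes 4 were called: Bcl2l11 (0.46 ± 0.07), the pore-forming Bak1 (0.37 ± 0.10) and the BH3-only gene Hrk (0.26 ± 0.07) were higher and the anti-apoptotic Bcl2 was lower (-0.35 ± 0.09). This BCL2 family count was 1 with Xist as a covariate or without Vehicle replicate 1, 3 or 4 and 2 without injured replicate 2 or 5. In animals given the peptide, against IDR, 5 of the 23 p53 targets were called, all higher, where 5.87% of all genes were called and 3.52% were called higher. They included Fas (0.61 ± 0.13), Sesn2 (0.34 ± 0.07), Sesn1 (0.33 ± 0.09) and Trp53inp1 (0.26 ± 0.07). Of the BCL2 family 3 were called there, all higher, namely Bcl2l11 (0.49 ± 0.07), Bak1 (0.46 ± 0.11) and Hrk (0.23 ± 0.05). Those 5 fell to between 1 and 3 without IDR replicate 1, 2, 3 or 4 or injured replicate 2, 3 or 5, and to 2 with centred arrays or Xist as a covariate. The 3 of the BCL2 family fell to 1 without IDR replicate 1 or 3. Of the partners and MAP kinases, Map2k3 was called in both (0.25 ± 0.07 and 0.26 ± 0.06). With the number as a block, 2 of the 10 were called against Vehicle, where 11.5% of all genes then were. Map2k3 was no longer called with Xist as a covariate in either, without Vehicle replicate 1, 2 or 3 or injured replicate 2, 4 or 5 in the first and without IDR replicate 1, 2 or 3 or injured replicate 1, 2, 3 or 5 in the second.

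LPS alone gave no limma call in the 4 lists in the main fit, while 2 of 7 other settings called 1 of the other p53 targets. At an unadjusted p under 0.05 there were 4 list genes in the main fit, beside 1240 of all genes. At that level were 2 of 23 other p53 targets and 1 of 12 BCL2 family genes. So were 1 of 11 genes of p53 and its regulators and 0 of 10 partners and MAP kinases. Whether these shares exceed that of all genes was not tested. The 4 genes, named here after their values were seen, were Trp53inp1 (0.26 ± 0.08; limma adjusted p = 0.283), Ddit4 (0.23 ± 0.07; 0.365), Chek1 (-0.28 ± 0.11; 0.617) and Bcl2 (-0.29 ± 0.10; 0.453). LPS after the peptide, against IDR, called 2 of the 23 p53 targets, both higher, where 1.47% of all genes were called: Trp53inp1, a p53-induced nuclear protein, at 0.56 ± 0.07 (limma adjusted p = 0.000403) and Sesn1 at 0.32 ± 0.07 (0.0363). That count was 1 without IDR replicate 1, 3 or 4 or LPS with IDR replicate 1, 2, 4 or 5. It was also 1 in 3 of 7 other settings of the fit.

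Some markers of cell types moved with the injury. The mean of 6 neuronal markers ran from 11.30 to 11.43 in the injured and 11.53 to 11.63 in the uninjured hemispheres without peptide, and from 11.36 to 11.39 against 11.50 to 11.64 with it. Of these 6, Neurod6 was called lower, at -0.73 and -0.77. Of 5 endothelial markers, Pecam1 was called higher in both (0.39 and 0.46) and Cdh5 with peptide (0.36). Of 5 microglial markers P2ry12 was called lower without peptide (-0.45), and of 4 oligodendrocyte lineage markers Pdgfra was (-0.35). These lists did not move as a whole: against Vehicle, the injured hemisphere had Aif1 (0.37) and Mbp (0.44) called higher. P2ry12 (-0.61), Pdgfra (-0.32) and Cspg4 (-0.22) were called lower there. With peptide, against IDR, Aif1 was called higher (0.34) and P2ry12 (-0.63) and Pdgfra (-0.37) lower. Without peptide the mean of 5 neutrophil markers ran from 5.10 to 5.42 in the injured and 5.01 to 5.17 in the uninjured hemispheres, which overlapped. With peptide it ran from 5.16 to 5.30 against 4.99 to 5.10, without overlap. None of the 5 was called between hemispheres in either. Astrocyte, monocyte, lymphocyte and choroid plexus lists had no call between hemispheres. The part of these shifts in the differences of Gadd45b, Gadd45g and Phlda3 was not tested.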

How the data were processed

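Gene expression had been measured on 40 Affymetrix arrays of mouse brain, 8 groups of 5, grouped by the labels. The deposited table holds, for every probe set, the log2 value that the authors obtained with RMA; the submitters' processing notes name RMA and the affy package without a version. Because RMA includes quantile normalisation, it removes any shift common to the whole of an array. Of 34760 probe sets, 21640 carried 1 gene symbol, 1321 several and 11799 none. Those with 1 symbol were used; 954 genes had several and were represented by the probe set of highest mean. No filter was set, and 19937 genes were tested. Symbols came from the array annotation, and 21553 probe sets had a gene ID in RefSeq GRCm38.p6. Where a probe set with 1 symbol had such an ID, the RefSeq symbol of that ID was used.

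Each comparison was fitted on its own arrays with limma 3.58.1 (lmFit and eBayes, R 4.3.3, data.table package 1.17.8) and adjusted over all genes by Benjamini-Hochberg; there were 12 comparisons of groups and 2 interactions. The script was tested on simulated data. Over all genes, the 95% interval reached a median of 0.15 to 0.18 (log2) to either side in comparisons of groups and 0.22 to 0.25 in interactions, a precision that the number of arrays limits. The shared Cdkn1a probe set was tested in a fit with it added to the genes. The members and gene lists were chosen with earlier results of these data known. All members were named, and of each list the called genes, up to 4 by absolute fold change; the 3 nearest patterns were named for members whose group means spanned over 0.5.

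Numbers in the labels were checked as pairs by correlating deviations from group means. Between the hemispheres without peptide the 5 correlations ran from 0.392 to 0.646, so the numbers were taken as pairs. For injured against Vehicle (0.116 to 0.443), which are different treatments, the number served only as a block, and the block changed no member's call. Elsewhere the lowest was under 0.1. What the numbers stand for is not stated. Arrays correlating best with their own number were 9 of 10 between hemispheres without peptide and 5 of 10 with it. Between uninjured hemispheres with and without peptide, again different treatments, they were 8 of 10. Promoter windows, 250 bases before to 50 after a start, came from RefSeq for 9 of the 10 members. Alternatives tried were 1 fit over all groups, the number as a block, a filter on log2 signal over 6 in at least 5 arrays, the mean of probe sets, arrays centred on their medians, Xist as a covariate, eBayes with trend and robust settings, and leaving out each array.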

Additional observations from a re-analysis of the deposited data

Results flagged for a closer look

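In 2 of the 72 combinations of probe set and group examined, a single array stood far from the others by Dixon's test, with a gap over 0.71 of the group's range; chance flags about 1 in 20 groups. Gadd45b in IDR replicate 5 was 7.69, below the nearest array at 7.81, a gap of 0.735 of the range. Pmaip1 in LPS replicate 1 was 6.43, above the nearest at 6.22, a gap of 0.781 of the range.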

How the results depend on the processing

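All 272 recomputed counts of called members were within 1.5 times the reported count. Of the recomputed fold changes of single members, 2051 kept their side of the threshold, 6 gained a call, 7 lost 1 and 0 changed the direction of a call. Uncalled fold changes among the 2051 moved by less than the within-group SD, and some of them changed sign. Without single arrays the member counts ran from 3 to 3 and from 2 to 3 in the injury comparisons without and with peptide, from 4 to 4 against Vehicle, from 3 to 4 against IDR and stayed at 0 elsewhere. The pairing by number gave 4 members in both injury comparisons, Gadd45a being added (adjusted p = 0.0194 with peptide, where the lowest same-number correlation was 0.0884 and the numbers were not taken as pairs), and changed no other member's call. Counting the shared Cdkn1a probe set, which was chosen after seeing the data, gave 4 calls with peptide, 5 against Vehicle and 4 against IDR.

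Counts over all genes moved more. For injury without peptide 596 became 1431 with all groups in 1 fit and 2032 with the block, and 285 to 641 without single arrays. With peptide 498 became 1432 in 1 fit, 894 with the block and 1085 with Xist, and 230 to 515 without single arrays. Xist as a covariate took LPS against Vehicle from 166 to 86, uninjured against Vehicle from 87 to 53 (51 to 95 without single arrays), injured against Vehicle from 1663 to 917 (964 to 1798) and, with peptide, uninjured against IDR from 40 to 21 (21 to 66; 67 in 1 fit). Injured against IDR went from 1171 to 1909 in 1 fit and 498 with the block (705 to 1196). The interaction of LPS and peptide went from 1 to 0 in 1 fit and with the filter (0 to 2). Of the counts of list members 92 of 1032 moved by over 1.5 times; with the filter on low signal the 2 other p53 targets called without peptide became 0. Where the numbers were not taken as pairs, the block gave with peptide 5 other p53 targets, 2 BCL2 family genes and 1 regulator called between hemispheres, and against IDR 1 other p53 target, 1 BCL2 family gene and 0 partners. The causes were not tested. With 5 arrays a group, changes under the interval widths given are not resolved.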
